A study of Homo sapiens with 6 samples.

Results

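The 8 genes of serine and glycine turnover described here were found by their platform gene symbols among 14779 genes with a named row on the arrays. They were SHMT1, SHMT2, GLDC, AMT, GCSH, DLD, GCAT and SRR, and each of the 8 had 1 row. BE(2)-C, an established human neuroblastoma line that is a single clone, was grown in DME/F-12 with fetal bovine serum. Of its samples, 3 received the vehicle DMSO and 3 received 10 µM NCT-503, each for 2 days. No other agent or allele distinguishes the groups in the labels, and both share the same line and medium. NCT-503 inhibits PHGDH, the enzyme that opens serine synthesis. RNA was measured on 6 Affymetrix whole-transcript arrays, 1 array a sample. All values are on the log2 scale of the deposited table. A change is the NCT-503 mean minus the DMSO mean, given with its standard error (SE) from limma, 3 arrays a group. A gene is said to have risen or fallen where its Benjamini-Hochberg adjusted p from limma, over all 14779 genes, lay under 0.05.

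Serine and glycine are joined by serine hydroxymethyltransferases, which move a carbon unit from serine to tetrahydrofolate and release glycine. SHMT2 does this in mitochondria and SHMT1 in the cytosol. The glycine cleavage system, a mitochondrial complex of the proteins encoded by GLDC, AMT, GCSH and DLD, breaks glycine into carbon dioxide, ammonia and another folate-bound carbon unit. GCAT completes a route from threonine to glycine, and SRR, serine racemase, turns L-serine into D-serine, a co-agonist of NMDA receptors. Proliferating cells, neuroblastoma among them, use the carbon units from serine for nucleotide synthesis.

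After NCT-503, the mitochondrial SHMT2 transcript more than doubled while the cytosolic SHMT1 transcript fell, and of the glycine cleavage genes GCSH rose. SRR rose, with a call that was lost on leaving out any 1 array except NCT-503 c. GLDC, AMT, DLD and GCAT did not pass. In all, 3 of the 8 genes rose and 1 fell, where 16.4% of all genes rose and 17.1% fell. All 3 NCT-503 arrays lay above all 3 DMSO arrays for 4 of the 8 and below them for 1, against 25.4% and 22.4% of all genes. The median change of the 8 was 0.20, beside 0.06 over all genes tested. In bulk RNA, fewer cells of a type and less RNA per cell cannot be told apart.

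**Figure D1:**
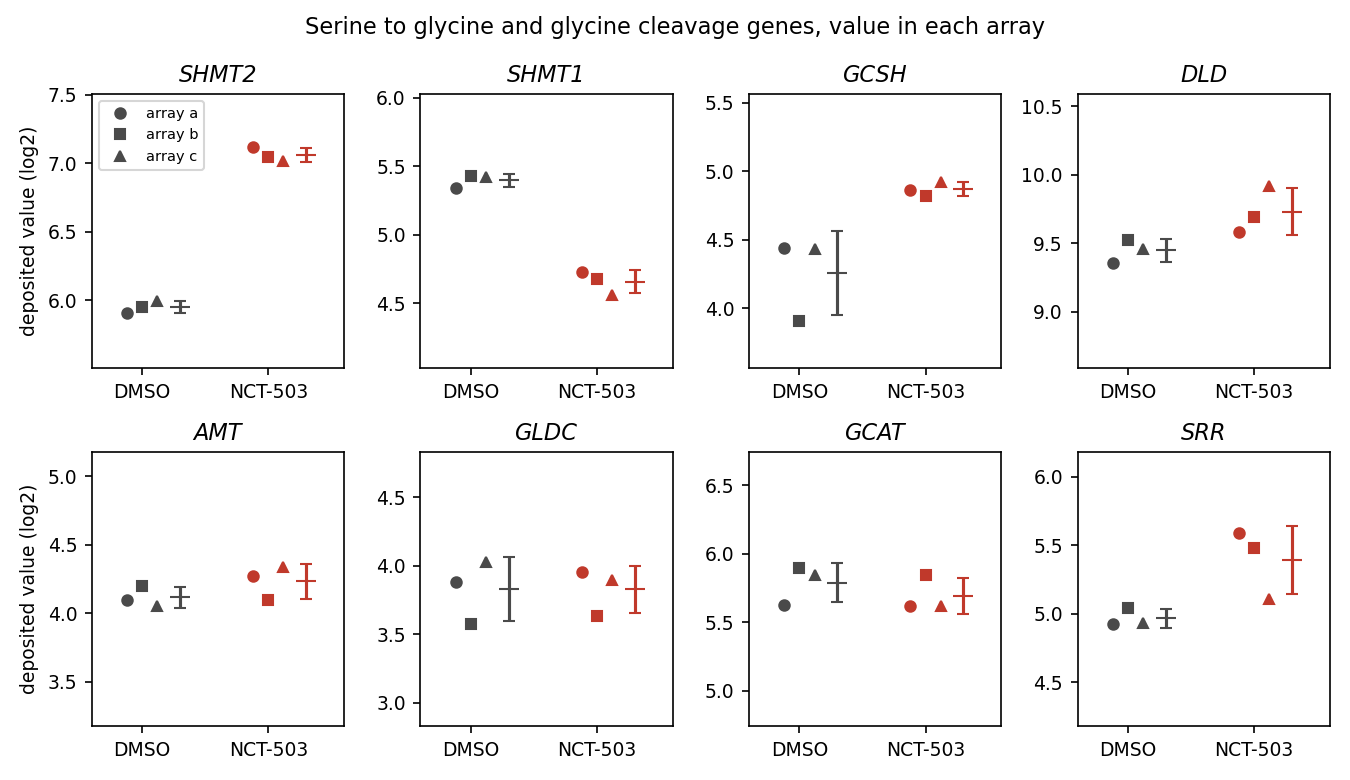
Value of each of the 8 genes in each array (y axis, deposited log2 value; every panel spans the same range of 2 units), with DMSO in grey and NCT-503 in red. Points are arrays a, b and c, and bars are mean ± SD (n = 3); the groups stand apart for SHMT2, SHMT1, GCSH, DLD and SRR and overlap for AMT, GLDC and GCAT.

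SHMT2 on chromosome 12 encodes the mitochondrial enzyme. Its values were 5.91, 5.95 and 5.99 in DMSO a, b and c and 7.12, 7.04 and 7.02 in NCT-503 a, b and c. The groups lay more than 1 unit apart, far beyond the spread within either group. SHMT2 rose 2.16-fold (change 1.11 ± 0.07 SE, adjusted p = 8.57e-05; 95% interval of the fold 1.92 to 2.43). By size it ranked 113 among the rises of the 14779 genes.

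SHMT1 on chromosome 17 encodes the cytosolic enzyme of the same reaction. It read 5.34, 5.43 and 5.42 in the DMSO arrays and 4.73, 4.68 and 4.56 in the NCT-503 arrays. Every treated array was lower than every control array. SHMT1 fell by 0.74 ± 0.08 (SE, adjusted p = 0.000536), which left 59.8% of the DMSO level. Its mean level lay near the median of all genes (50.6% of genes were lower), and its height above background is unknown.

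The 2 hydroxymethyltransferases thus moved in opposite directions, and this was measured within each array. SHMT2 minus SHMT1 was 0.57, 0.52 and 0.57 in DMSO a, b and c. The same quantity was 2.39, 2.36 and 2.46 in NCT-503 a, b and c. It shows only how the distance between the 2 rows shifted, since the levels of different probes are not comparable. The mean rose from 0.55 ± 0.03 to 2.40 ± 0.05 (SD, n = 3 each), a shift of 1.85 or 3.61-fold in the ratio. The two-sided exact permutation p was 0.10, which is the smallest that 3 arrays against 3 can give and which the opposite, non-overlapping changes of the 2 genes already fix.

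**Figure D2:**
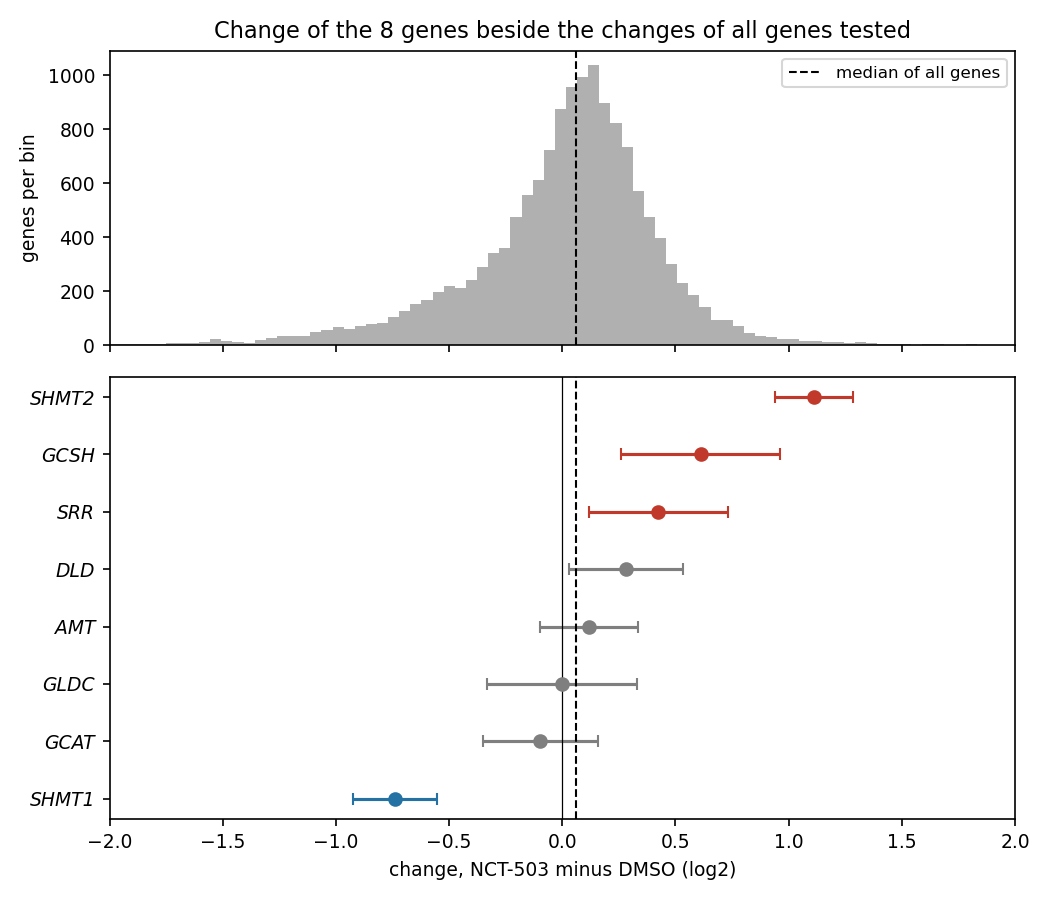
Upper panel, histogram of the changes of all genes tested (x axis, NCT-503 minus DMSO in log2; 85 genes with a change of more than 2 in size lie outside). Lower panel, change of each of the 8 genes with its 95% interval from limma; red rose, blue fell, grey did not pass, and the dashed line is the median of all genes (0.06), with SHMT2 at 1.11 and SHMT1 at -0.74.

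The glycine cleavage genes did not move together. GCSH on chromosome 16 encodes the H protein, whose lipoyl arm carries the intermediate between the other subunits. GCSH read 4.44, 3.90 and 4.43 in the DMSO arrays and 4.87, 4.82 and 4.92 in the NCT-503 arrays. The groups did not overlap, and DMSO b lay well below the other controls. GCSH rose 1.53-fold (change 0.61 ± 0.15, adjusted p = 0.0177; 95% interval of the fold 1.20 to 1.95). Without DMSO b the change was 0.44 (adjusted p = 0.0134), and without NCT-503 c the call was lost (0.59, adjusted p = 0.0567).

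RefSeq lists 6 pseudogenes named after GCSH, copies whose sequence array probes may not separate from the gene. Only GCSHP3, a transcribed pseudogene on chromosome 2, had a named row; it was looked up after the members' values were known. Its values were 7.35, 7.35 and 7.14 in DMSO and 6.10, 6.20 and 6.39 in NCT-503. Here all treated arrays were the lower ones, the opposite of GCSH. GCSHP3 fell by 1.05 ± 0.11 (SE, adjusted p = 0.000411). Within an array, GCSH minus GCSHP3 was 1.66 higher in NCT-503 than in DMSO, which follows from the 2 separate changes. How far either row reads transcripts of the other was not tested.

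**Figure D3:**
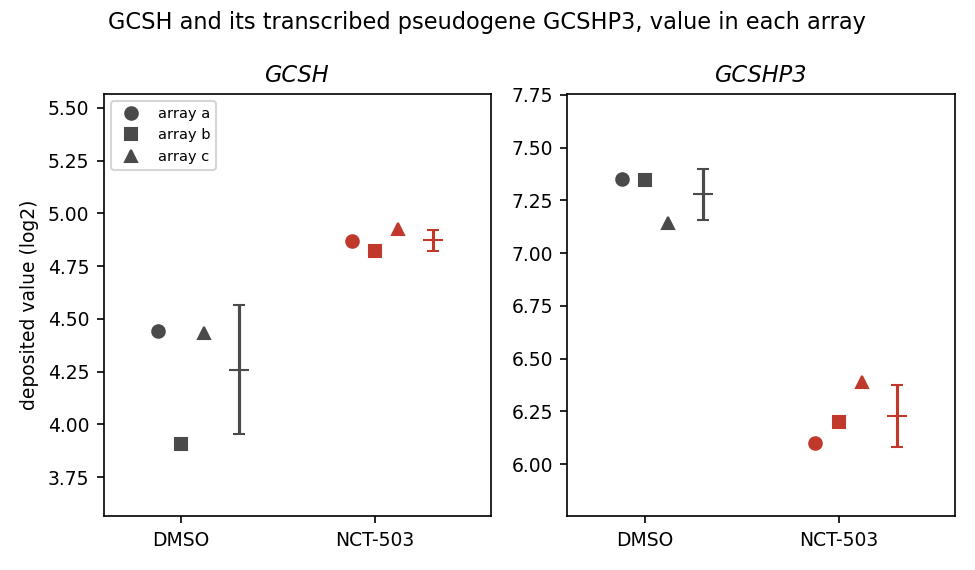
Values of GCSH and of its pseudogene GCSHP3 in each array (y axes, deposited log2 value, same span in both panels; levels of the 2 rows are not comparable). Points are arrays and bars are mean ± SD (n = 3); GCSH lay higher and GCSHP3 lower in all 3 NCT-503 arrays.

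DLD on chromosome 7 encodes the dihydrolipoamide dehydrogenase that reoxidises the lipoyl arm, a subunit shared with the pyruvate, oxoglutarate and branched-chain ketoacid dehydrogenases. Its values were 9.36, 9.53 and 9.46 in DMSO and 9.58, 9.69 and 9.92 in NCT-503. The treated arrays were all higher, with NCT-503 c the farthest away. The change of 0.28 ± 0.11 did not pass (adjusted p = 0.0815; 95% interval of the fold 1.02 to 1.45). It passed when each array was centred at its 75th percentile (0.35, adjusted p = 0.0484), with trend and robust settings (adjusted p = 0.0102) and among genes at or above the median level (adjusted p = 0.0304).

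AMT on chromosome 3 encodes the aminomethyltransferase that hands the carbon unit to folate. AMT read 4.09, 4.20 and 4.05 in DMSO and 4.27, 4.09 and 4.34 in NCT-503. The groups overlapped, and the change of 0.12 ± 0.09 did not pass (adjusted p = 0.366; 95% interval of the fold 0.934 to 1.26). The annotation places NICN1 over part of AMT, and the difference for NICN1 was 0.07 ± 0.09 (adjusted p = 0.565).

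GLDC on chromosome 9 encodes the decarboxylase that starts glycine cleavage. GLDC read 3.89, 3.57 and 4.03 in DMSO and 3.95, 3.63 and 3.90 in NCT-503, so the groups covered nearly the same range. The change was -0.002 ± 0.14 (SE, adjusted p = 0.994), and the 95% interval of the fold ran from 0.793 to 1.26. The arrays do not exclude a change of a size inside that interval. Scanner values were not used, so it is unknown how far this dim row stood above background.

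GCAT on chromosome 22 encodes the ligase that splits a threonine-derived intermediate into glycine and acetyl-CoA. GCAT read 5.63, 5.90 and 5.85 in DMSO and 5.62, 5.85 and 5.62 in NCT-503. The groups overlapped, with a change of -0.10 ± 0.11 (adjusted p = 0.529; 95% interval of the fold 0.785 to 1.11). The sign turned with quantile normalization, to 0.01.

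SRR on chromosome 17, the racemase, read 4.92, 5.05 and 4.93 in DMSO and 5.59, 5.48 and 5.11 in NCT-503. The treated arrays were all higher, but NCT-503 c lay nearer to the controls than to its own group. SRR rose 1.34-fold (change 0.42 ± 0.13, adjusted p = 0.0414; 95% interval of the fold 1.09 to 1.66). The call was lost on leaving out NCT-503 a (adjusted p = 0.110), NCT-503 b (0.110), DMSO a (0.111), DMSO b (0.0671) or DMSO c (0.105). Without NCT-503 c the change was 0.57 (adjusted p = 0.00596).

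**Figure D4:**
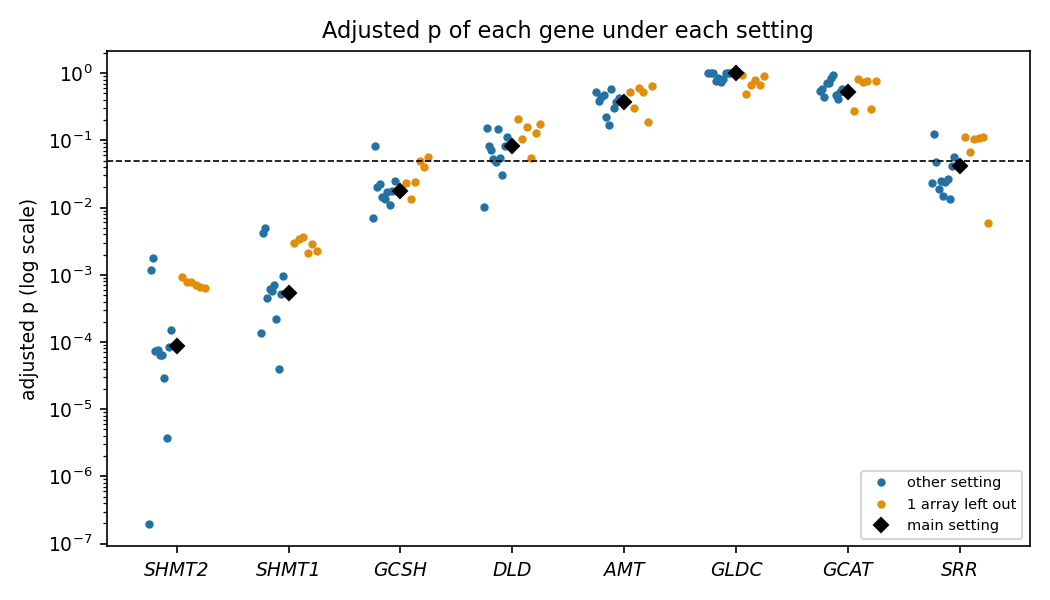
Adjusted p of each of the 8 genes (y axis, log scale) in the main setting (diamond), under other settings (blue) and with 1 array left out (orange); the dashed line is 0.05. SHMT2 and SHMT1 lie below the line throughout, GCSH, DLD and SRR lie on both sides of it, and AMT, GLDC and GCAT lie above it throughout.

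Promoter windows from RefSeq (GRCh38.p14, from 250 bases before to 50 after a gene's start) matched 7 of the 8 genes: SHMT1, GLDC, AMT, GCSH, DLD, GCAT and SRR. SHMT2, which rose, had no window and could not be searched. The windows of SHMT1, GCSH and SRR are printed 5′ to 3′ on the gene's strand, to set the falling SHMT1 beside the rising GCSH and SRR. SRR has 2 overlapping windows, from starts 7 bases apart, and the first is shown. The printed windows lie at chr17:18363501-18363800 (minus strand), chr16:81096346-81096645 (minus strand) and chr17:2303693-2303992 (plus strand). Capitals mark CCAAT boxes, read on either strand, in SHMT1 and GCSH, and an NRF1 motif in SRR.
SHMT1: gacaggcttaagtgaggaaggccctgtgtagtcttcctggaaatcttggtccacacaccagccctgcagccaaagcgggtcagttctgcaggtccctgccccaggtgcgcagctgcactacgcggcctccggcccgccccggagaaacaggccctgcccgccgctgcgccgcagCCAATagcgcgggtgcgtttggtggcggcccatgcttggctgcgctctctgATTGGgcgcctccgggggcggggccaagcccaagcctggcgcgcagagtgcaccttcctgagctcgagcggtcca
GCSH: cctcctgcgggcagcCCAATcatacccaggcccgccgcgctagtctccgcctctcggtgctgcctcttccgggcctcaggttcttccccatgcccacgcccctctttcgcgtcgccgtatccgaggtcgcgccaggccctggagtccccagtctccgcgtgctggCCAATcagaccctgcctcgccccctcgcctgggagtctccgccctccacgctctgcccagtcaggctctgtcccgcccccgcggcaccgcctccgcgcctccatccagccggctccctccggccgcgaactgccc
SRR: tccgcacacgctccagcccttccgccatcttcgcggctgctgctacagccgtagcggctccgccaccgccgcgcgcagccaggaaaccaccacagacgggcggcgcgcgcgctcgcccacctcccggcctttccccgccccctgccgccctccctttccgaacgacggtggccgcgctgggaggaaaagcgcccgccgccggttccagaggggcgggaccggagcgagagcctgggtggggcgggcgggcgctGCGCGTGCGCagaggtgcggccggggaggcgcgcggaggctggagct
Exact matches were sought on both strands. The core of the C/EBP-ATF response element is TGATGNAA, through which ATF4 acts on amino acid genes. It was in none of the windows of the 7 searched genes and in 3.62% of the 35116 windows of all genes. Neither the E-box CACGTG (7.26% of all windows) nor the cyclic AMP response element TGACGTCA (1.85%) was in the windows of the 7 searched genes. The NRF1 motif (5.78%) was in SRR alone, at positions 4 to 13 counted from the first of its 2 annotated starts and from -4 to 6 counted from the second. CCAAT, which was added after the sequences were read and is held by 34.6% of all windows, was in SHMT1, GCSH, GLDC, AMT, DLD and GCAT. SHMT1, which fell, and GCSH, which rose, each had 2 copies. These matches describe letters and are not binding sites, and the absence of one says nothing about the factor.

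The neighbouring pathway was read through lists of 103 further genes, of which 55 were measured. Of these 55, 13 rose and 12 fell, where 16.4% of all genes rose and 17.1% fell. The median change of the 55 was 0.05. Serine synthesis lies just upstream. PHGDH, the target of NCT-503, read 7.68 ± 0.07 in DMSO and 8.65 ± 0.12 in NCT-503 (mean ± SD, n = 3 each). The 2 later enzymes of that route, PSAT1 and PSPH, also rose, by 0.73 and 0.25. The PSPH call did not survive the loss of any single array (adjusted p 0.0748 to 0.142).

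Folate enzymes take up the carbon units that SHMT2, SHMT1 and the cleavage system release. None of 10 measured rose and 5 fell by limma's adjusted p (4 and 5 at an unadjusted p under 0.05). Of all genes, 16.4% rose and 17.1% fell, and 23.2% and 20.6% were higher and lower at that unadjusted p. The median change was -0.27. Among those that fell were MTFMT, which formylates the initiator tRNA of mitochondria (-0.73), TYMS, thymidylate synthase (-0.68), MTRR (-0.65) and MTR, methionine synthase (-0.52). MTRR, the reductase that keeps methionine synthase active, was no longer called on leaving out NCT-503 a (adjusted p = 0.0673), NCT-503 b (0.0623), DMSO b (0.0658) or DMSO c (0.0642). MTHFD1L, the mitochondrial formate-releasing enzyme, did not pass (0.19 ± 0.07, adjusted p = 0.0874). Centring each array at its median, or at its 75th percentile, made 4 of the 10 rise. Higher calls over all genes also grew, from 2419 in the main setting to 2990 with the median and 3345 with the 75th percentile. Lower calls over all genes shrank from 2534 to 2321 and 2189, in that order. Whether the folate enzymes moved more than other genes on centring was not tested.

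Carriers of serine and folate were measured for 4 of 18 genes. SFXN2, a relative of the mitochondrial serine carrier, fell from 5.93 ± 0.11 to 5.01 ± 0.15. SFXN1, the serine carrier itself, did not pass (-0.25 ± 0.09, adjusted p = 0.0597), but it was called lower with trend and robust settings and under both filters on dim genes. SFXN3 (-0.13) and FOLR1 (0.22), a folate receptor, did not pass. No carrier rose, at an unadjusted p under 0.05 either (16.4% of all genes rose, and 23.2% were higher at that unadjusted p).

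The H protein works only with lipoate attached. LIAS, lipoate synthase, rose 1.57-fold (0.65 ± 0.10, adjusted p = 0.00218), and its groups did not overlap. LIPT2, which places the precursor octanoate on the H protein, fell by 0.43 ± 0.10 (adjusted p = 0.0161). The LIPT2 call was lost without DMSO a (adjusted p = 0.0563) or DMSO c (0.0545). LIPT1, which passes lipoate on to the dehydrogenase complexes (0.21), and MECR, of mitochondrial fatty acid synthesis (-0.29), did not pass.

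Among other subunits of complexes that share DLD, 3 of 8 rose and 2 fell, where 16.4% of all genes rose and 17.1% fell. OGDHL, an isoform of the oxoglutarate dehydrogenase subunit, rose 1.51-fold (0.60 ± 0.09), DBT of the branched-chain complex rose 1.51-fold (0.59 ± 0.09) and PDHA1 of the pyruvate complex rose 1.24-fold. DHTKD1, of the oxoadipate complex, fell by 0.55 ± 0.08, and OGDH, the oxoglutarate dehydrogenase subunit, fell by 0.41 ± 0.10. PDHA1 lost its call without DMSO b (adjusted p = 0.0507) or NCT-503 b (0.0502), and OGDH without DMSO b (0.0585).

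**Figure D5:**
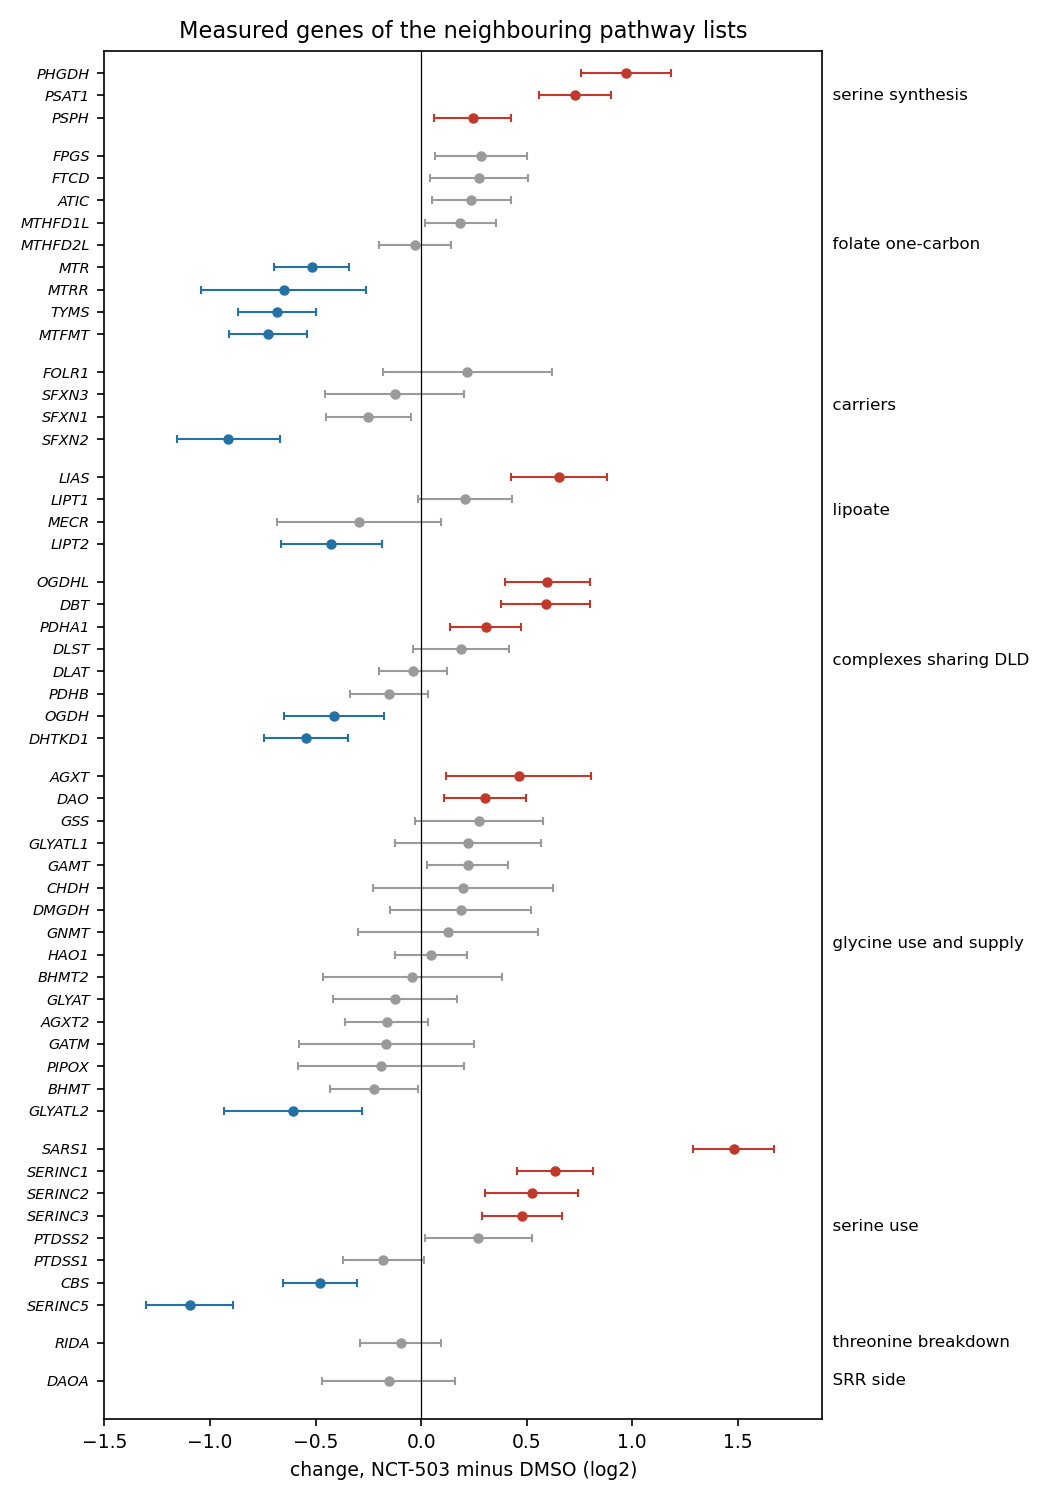
Change of 54 of the 55 measured genes of the pathway lists (x axis, NCT-503 minus DMSO in log2, with 95% intervals from limma), grouped by list, with 1 folate gene not drawn; red rose, blue fell, grey did not pass. Values run from SARS1 at 1.48 to SERINC5 at -1.09; DAO, which is in 2 lists, is drawn once.

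Of 16 measured enzymes that use or yield glycine, 2 rose, 1 fell and 13 did not pass. These shares were no larger than those over all genes, of which 16.4% rose and 17.1% fell. AGXT, which makes glycine from glyoxylate, rose by 0.46 and DAO, the D-amino acid oxidase, by 0.30. GLYATL2, a glycine acyltransferase, fell by 0.61 ± 0.14. These were dim rows of unknown height above background, with a lower mean in only 36.4%, 22.7% and 28.4% of genes, in that order. AGXT was no longer called on leaving out NCT-503 a (adjusted p = 0.117), NCT-503 b (0.127), DMSO a (0.111) or DMSO c (0.130). DAO also degrades the D-serine that SRR makes, and its call was lost without any 1 array except NCT-503 a (adjusted p from 0.0565 without DMSO a to 0.0855 without DMSO c). The other measured gene on the D-serine side, DAOA, did not pass (-0.15). RIDA, which clears reactive intermediates of serine and threonine dehydration, was measured alone among threonine breakdown genes beside GCAT and did not pass (-0.10).

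Of 8 other serine-using genes measured, 4 rose and 2 fell, where 16.4% of all genes rose and 17.1% fell. The median change was 0.37. SARS1, which charges serine tRNA, rose from 8.52 ± 0.06 to 10.00 ± 0.09 (SD, n = 3). The SERINC genes, membrane proteins named for serine incorporation into lipids, split. SERINC1 rose by 0.64 ± 0.08, SERINC2 by 0.52 ± 0.09 and SERINC3 by 0.48 ± 0.08, whereas SERINC5 fell by 1.09 ± 0.09. CBS, which joins serine to homocysteine, fell by 0.48 ± 0.07.

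For each gene that rose or fell, the most alike genes were taken as those with the smallest root mean square difference between profiles over the 6 arrays, each centred on its mean. For SHMT2 they were SPSB3 (0.0336), SNRK (0.0486) and AARS1 (0.0489), with changes of 1.08, 1.02 and 1.08. For SHMT1 they were FZD6 (0.0261), PDE8A (0.0273) and HSD17B1 (0.0277), with changes of -0.75, -0.74 and -0.78. GCSH lay closest to the pseudogene PPIAP30 (0.0584), CSRNP1 (0.0772) and NPAS4 (0.0774), with changes of 0.56, 0.48 and 0.55. SRR lay closest to TMEM205 (0.0332), RPL32 (0.0426) and MRPL38 (0.0469), with changes of 0.48, 0.40 and 0.35. Of these, CSRNP1 (adjusted p = 0.0501), RPL32 (0.0596) and MRPL38 (0.0556) did not pass. The calls of NPAS4 and TMEM205 were each lost without certain single arrays. These distances are descriptions and mostly reflect the step between the groups.

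Over the whole table, array medians lay between 4.30 and 4.33. Pairs of arrays of 1 group correlated at 0.990 to 0.993, and pairs from different groups at 0.971 to 0.972. The number of arrays limits the precision. Over the genes tested, array medians were 5.02 to 5.03 in DMSO and lower, 4.97 to 4.99, in NCT-503. Calls numbered 2419 higher and 2534 lower, or 3345 and 2189 when each array was centred at its 75th percentile, which shifted the median of all genes by 0.07. Of 10 adrenergic neuroblastoma markers 7 were measured, with group means from 5.88 (TH) to 10.41 (DBH). Of these 7, PHOX2A (0.75), GATA3 (0.37) and DBH (0.37) rose, HAND2 (-0.30) and ISL1 (-0.29) fell, and GATA2 and TH did not pass. Over all genes, 16.4% rose and 17.1% fell. For fibroblasts 2 of 5 markers were measured, and their summed log2 level ran from 11.95 to 12.13 in DMSO and from 11.13 to 11.45 in NCT-503. Of the fibroblast markers, DCN fell by 0.47 (adjusted p = 0.00687) and LUM did not pass (-0.24, adjusted p = 0.0521). Both lay lower in all 3 NCT-503 arrays than in all 3 DMSO arrays, as did 22.4% of all genes. Measured Schwann or glial (2 of 4) and blood or endothelial markers (2 of 5) did not pass, and their summed levels overlapped between the groups (8.82 to 9.24 and 6.68 to 7.63 in DMSO, 8.78 to 9.11 and 6.87 to 7.17 in NCT-503). Of the glial pair, S100B taken alone lay lower in all 3 NCT-503 arrays (-0.18, adjusted p = 0.134), and SOX10 overlapped (0.14). No marker stood at 0, and the part of these shifts in the members' results was not tested.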

How the data were processed

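Values were the authors' deposited log2 values of 6 arrays, processed with Partek per the submitters' processing notes. The sources used here do not name the background correction, normalization or build. That they are log2 was read from their range (0.578 to 13.6). Of 31135 rows, 15098 had 1 gene symbol and none several. Entrez identifiers matched all of these to GRCh38.p14 names; 16037 are unnamed here. Where 256 genes had several rows, the one with the highest mean was kept, which left 14779 genes. The test was limma 3.58.1 (R 4.3.3; lmFit and eBayes without trend, no covariates), two-sided, with Benjamini-Hochberg adjustment. The labels call the samples independent but name no separate cultures. The p-values therefore reflect sample-to-sample spread only, which may be technical.

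The members and lists were chosen with earlier results of these data known. All 8 members are named, as are up to 4 called genes of each list (all where 5 or fewer were measured), PHGDH, and the 3 most alike genes of each called member. MTR, MTHFD1L, PDHA1, SERINC3, CBS, GCSHP3, NICN1 and the markers were named outside that rule, and 1 folate gene that the rule would name is counted but not reported here. The script was tested on simulated data. Alternatives were other moderation, array weights, a replicate block, 3 scalings, 2 filters, other row choices, each array left out and an adjusted p under 0.01. Figures were drawn with matplotlib 3.10.9.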

Additional observations from a re-analysis of the deposited data

How the results depend on the processing

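SHMT2 and SHMT1 kept their direction and call under all 18 alternatives (changes of 1.08 to 1.20 and -0.78 to -0.67), and AMT, GLDC and GCAT passed under none of theirs. Without moderation GCSH (0.61, adjusted p = 0.0819) and SRR (0.42, adjusted p = 0.122) lost their calls, so that 1 member rose, as at an adjusted p under 0.01; SRR lost its call too when every row of the table was tested (0.42, adjusted p = 0.0564). DLD was called higher with trend and robust settings (0.28), among genes at or above the median level (0.28) and on centring each array at its 75th percentile (0.35). With 1 array left out, changes ran from 0.44 to 0.70 for GCSH and from 0.33 to 0.57 for SRR. GCSH, AMT and GLDC had means below the median of all genes and could not be fitted under the stricter filter, and their height above background is unknown.

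An adjusted p under 0.01 left 1226 genes higher and 1682 lower, and all 31135 rows gave 4100 lower calls. The shared letters a, b and c did not pair the arrays (correlations of deviations 0.004, 0.003 and 0.038, and not every array was closest to its own letter). The fit with the replicate block gave 2108 and 2327 calls and changed no member's call (SHMT2 1.11, adjusted p = 0.00177). Over the alternatives, list counts ran from 0 to 4 higher (main 0) and 3 to 5 lower (main 5) for folate enzymes, 1 to 2 lower for carriers (main 1), 0 to 1 lower for lipoate genes (main 1), 1 to 2 lower for complexes sharing DLD (main 2), and 0 to 3 higher (main 2) and 0 to 2 lower (main 1) for glycine-using enzymes; the D-amino acid side had 0 or 1 (main 1). The filters leave out genes below their cut before the fit, so a dim list gene counts there as not called. The low of 3 for folate enzymes came only from the filter at the median level, where MTRR was among the genes not fitted. DAO was fitted under neither filter, and GLYATL2 was not fitted under the one at the median level. Other causes were not tested.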
